A study of Mus musculus with 4 samples.

Results

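Gata3, Bcl11b, Satb1, Tox and Myb encode transcription regulators that give thymocytes their T lineage identity. The peaks described here were those of 2 streptavidin ChIP-seq lists whose midpoint lay in the mm10 RefSeq body of 1 of these 5 genes or within 50 kb on either side. The PLZF-transgenic list held 17 such peaks of 5198 in all, and the NKT list held 10 of 4246. The genes were chosen as 5 of 21883 nuclear protein-coding genes by their known roles, with earlier results of these data in view.

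Streptavidin ChIP-seq recovers DNA bound to a biotinylated protein, here PLZF (the zinc finger factor encoded by Zbtb16), which the bacterial ligase BirA tags with biotin. Both libraries came from thymocytes of mice on a C57BL/6 background that carried a PLZF and a BirA transgene. The PLZF-transgenic library (labelled Tg thy) came from PLZF tg/BirA tg mice. The NKT library came from PLZF tg/BirA tg/Valpha14 tg mice, in which the Valpha14 transgene supplies the T cell receptor chain that marks invariant natural killer T cells. With 1 ChIP library per group there was no replicate error, and no test between libraries was run. Both are labelled as thymocytes, with no sort named. Age, sequencing depth, pooling of animals and the promoters of the transgenes were not given in the sources used here. No sample is labelled as a pull-down without the PLZF transgene, so signal that does not come from PLZF cannot be told apart from binding. The 2 input libraries were not analysed here.

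These regulators act at successive steps of thymocyte development. GATA3 is needed from the earliest T lineage progenitors and again for CD4 lineage cells, and BCL11B closes off other fates when progenitors commit to the T lineage. SATB1 organises chromatin in thymocytes, TOX is needed for positively selected CD4 lineage cells including natural killer T cells, and MYB is needed through the CD4 CD8 double-positive stage from which natural killer T cells arise. PLZF is the factor that gives natural killer T cells their innate-like effector program.

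A single peak covered a start site of one of these genes, and that sequence is shown with a start of a neighbouring noncoding gene because they are the promoters in the windows that a peak touched. RefSeq (GRCm38.p6, the assembly named mm10) listed promoters of 300 bases, from 250 before to 50 after a start, for 4 of the 5 genes, all on the minus strand, and none for Tox. There were 8 entries, 5 of them for Satb1. An internal Satb1 start, chr17:51826539-51826838 on the minus strand, lay wholly under a PLZF-transgenic peak. The start of the noncoding gene Gm33619, chr10:21186694-21186993 on the plus strand in the Myb window, had 182 of its 300 bases under another. Capitals mark the E box CANNTG (the letters bound by E proteins) and, in Gm33619, also a GATA motif.
Satb1 internal start: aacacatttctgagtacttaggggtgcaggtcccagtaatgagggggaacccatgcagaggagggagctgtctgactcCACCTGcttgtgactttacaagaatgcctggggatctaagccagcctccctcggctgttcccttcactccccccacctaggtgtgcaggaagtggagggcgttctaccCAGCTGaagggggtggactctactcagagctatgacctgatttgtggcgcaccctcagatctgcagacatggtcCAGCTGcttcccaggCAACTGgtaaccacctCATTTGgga
Gm33619 start: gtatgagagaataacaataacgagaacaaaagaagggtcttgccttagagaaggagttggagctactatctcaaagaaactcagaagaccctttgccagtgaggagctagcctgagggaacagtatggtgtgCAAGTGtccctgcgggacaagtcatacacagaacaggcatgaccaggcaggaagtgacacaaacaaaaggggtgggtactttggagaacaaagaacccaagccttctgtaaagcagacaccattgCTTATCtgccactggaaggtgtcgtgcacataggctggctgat

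The Satb1 stretch had 56.0% G and C and held 5 E boxes, 1 of which had the MYB letters CAACTG, themselves a form of the E box. Both strands were searched, and an E box was present in 72.3% of the 32851 promoters in the table and CAACTG in 13.7%. The Gm33619 stretch had 48.0% G and C, 1 E box, and 1 match to GATAAG, a motif found in 7.44% of promoters. None of the 8 promoters of the identity genes held GATAAG, the RUNX letters TGTGGT (in 16.8% of all promoters) or the ETS letters CCGGAAG (in 8.86%). The TCF and LEF letters CTTTGAA (in 5.14%) occurred in the Bcl11b promoter alone among the 8. Letters in a window are a description and not a binding site. In the PLZF-transgenic list 2 of 17 peaks of the windows overlapped a listed promoter, where 12.0% of all its peaks did. In the NKT list 0 of 10 did, against 10.8% of all its peaks.

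The 5 windows differed in how many peaks they held and where. Satb1 had the most PLZF-transgenic peaks, with 5, and Gata3 the fewest, with 1. All 5 genes had a PLZF-transgenic peak, where 30.3% of protein-coding genes did in windows drawn the same way. In the NKT list 4 of the 5 had a peak, Gata3 being the one without, where 26.3% of genes did. The same 4 genes had peaks of both lists, as did 20.6% of all genes.

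**Figure D1:**
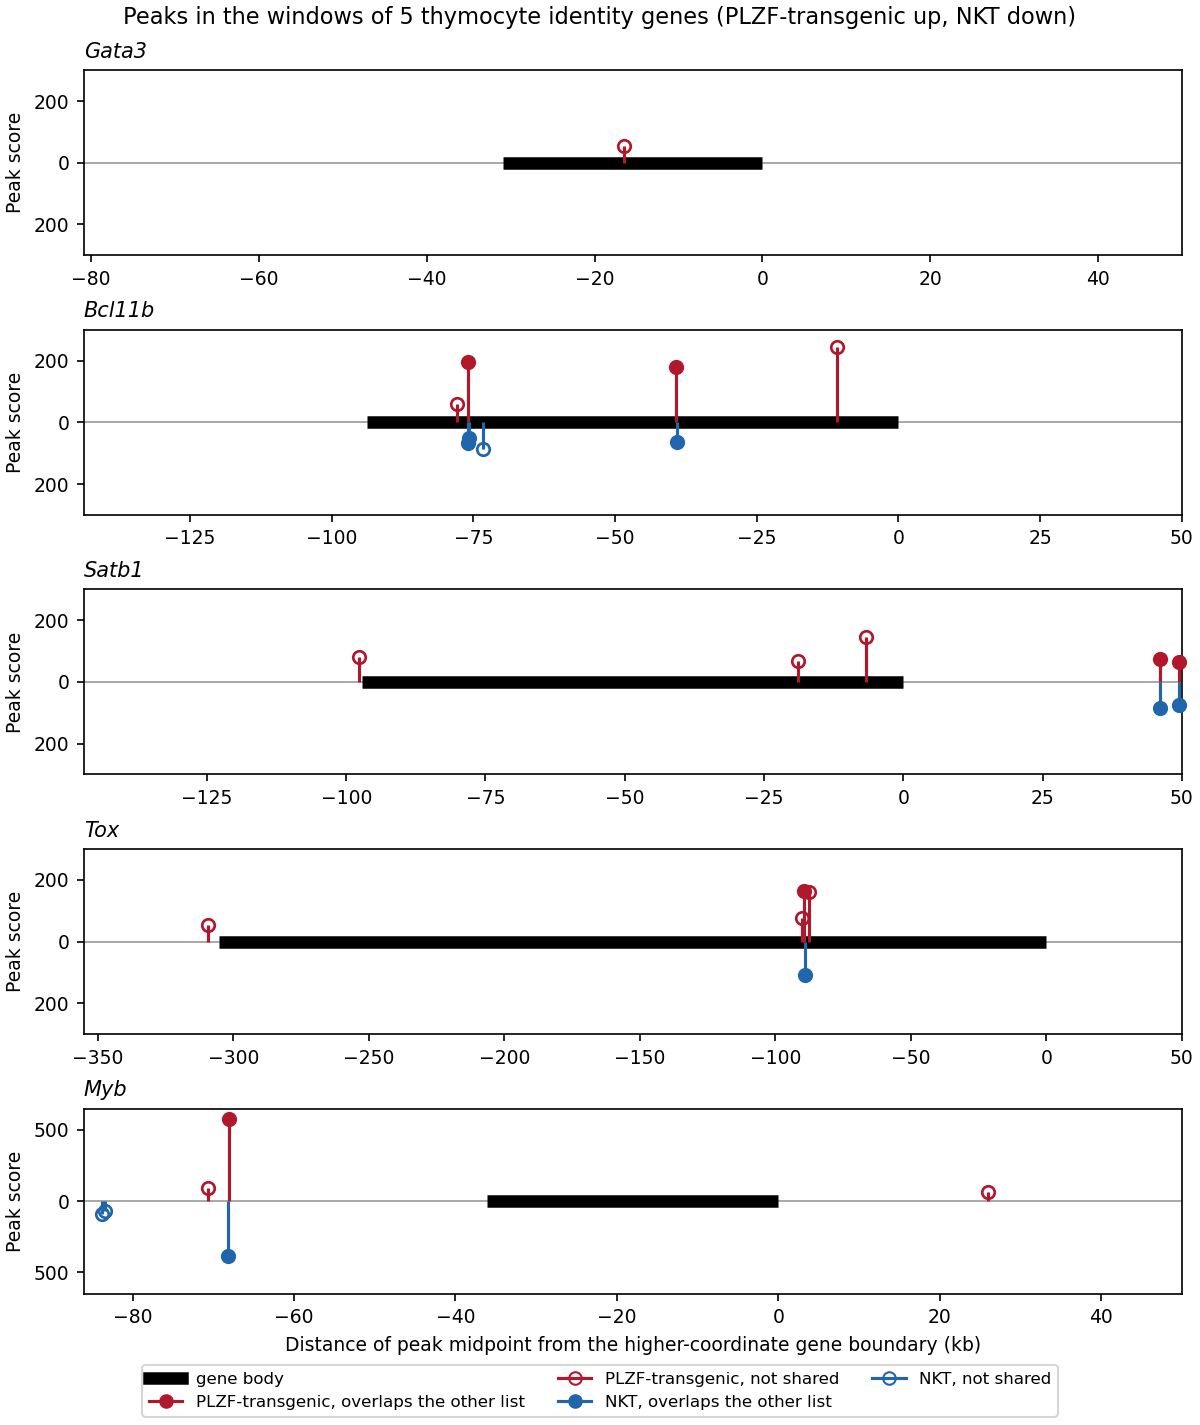
Positions of the peaks in each window, as distance in kb of the peak midpoint from the gene boundary with the higher coordinate (0), which is the 5′ boundary of Gata3, Bcl11b, Satb1 and Myb. Stem length is the peak score, upward for the PLZF-transgenic and downward for the NKT list; the Myb panel has a longer score axis, black bars are gene bodies, and filled points overlap a peak of the other list. The highest stems are those of the Myb window, 576 and 382, and the single Gata3 stem is among the lowest.

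Gata3 (gene ID 14462, chromosome 2, 9857078 to 9887953) had 1 peak in its 131 kb window. It was a PLZF-transgenic peak from 9871337 to 9871560 inside the gene, 7.15 kb from the listed start. Its score was 53.2, where the lowest score of the list is 50.03, and 6.40% of the list's peaks scored as low or lower. The NKT list had no peak in the window, and its closest one to the gene lay 262 kb from the gene body. Near Gata3, then, the lists together held 1 peak, close to the lower limit of its list.

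Bcl11b (gene ID 58208, chromosome 12, 107910403 to 108004145) had 4 peaks in each list, all of them inside the gene. The highest PLZF-transgenic score was 243, for a peak from 107992960 to 107993560 that lay 10.2 kb from the listed start. The NKT list had no peak there, and its nearest midpoint was 28.3 kb away. Of all PLZF-transgenic peaks in the same score class (235.35 to 352.47, the ninth of 10), 79.4% overlapped an NKT peak, so this one is among the fewer that did not.

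Near the 3′ end of Bcl11b the lists met. A PLZF-transgenic peak from 107927966 to 107928518, score 196, contained a pair of NKT peaks with scores of 67.3 and 51.4. A PLZF-transgenic peak from 107964554 to 107965104 in the middle of the gene, score 179, contained an NKT peak of score 63.0. Each list also had 1 peak beside the 3′ site that the other lacked, of score 60.6 (PLZF-transgenic) and 86.4 (NKT), 1.80 and 2.55 kb from the nearest midpoint of the other list. The former ran from 107926202 to 107926452 and the latter from 107930636 to 107930944. The 86.4 was the highest NKT score in the Bcl11b window, so the site that ranked first in each list was absent from the other. Exons and introns were not told apart, since the gene table gives spans only.

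Satb1 (gene ID 20230, chromosome 17, 51736187 to 51833290) had 5 PLZF-transgenic and 2 NKT peaks. The PLZF-transgenic peak over the internal start shown above ran from 51826403 to 51826875 and scored 144, the highest in this window, and its midpoint was 0.051 kb from that start. A second one, of score 68.5 (51814267 to 51814542), lay inside the gene 2.22 kb from another listed start. Another, of score 82.5 (51735373 to 51735671), lay 0.665 kb past the 3′ boundary. No NKT peak overlapped any of these. In their score classes 52.3% (for the 144), 22.3% (68.5) and 33.3% (82.5) of all PLZF-transgenic peaks overlapped an NKT peak, so lacking one was common. The body of Satb1 held 2 peaks, both of the PLZF-transgenic list.

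Both lists had the same pair of sites upstream of Satb1. At 46.1 kb from the 5′ boundary (51879233 to 51879556, and 51879259 to 51879485 in the NKT list) the PLZF-transgenic score was 74.6 and the NKT score 83.5. At 49.5 and 49.4 kb, at the boundary of the noncoding gene Gm20098 nearer to Satb1 (51882663 to 51882929, and 51882623 to 51882811 in the NKT list), they were 66.1 and 75.2, and that PLZF-transgenic midpoint lay inside Gm20098. The latter pair sat just within the 50 kb limit, and the next PLZF-transgenic peaks just outside it lay at 59.8 kb (score 217) and 73.2 kb (score 103), neither with an NKT partner. At both upstream sites the NKT score was the higher number, but scores of lists with unknown depth show no change between them.

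Tox (gene ID 252838, chromosome 4, 6686353 to 6991557) has the longest body of the 5, 305 kb, and its peaks stood close together. PLZF-transgenic peaks of score 77.0, 163 and 160 lay between 6901390 and 6904133 inside the gene. The middle one, from 6902021 to 6902567, contained the only NKT peak of the window, from 6902155 to 6902539, with a score of 109. A further PLZF-transgenic peak of score 52.4 (6682081 to 6682342) lay 4.14 kb beyond the lower-coordinate boundary, near the lowest score of the list. Of the 405 kb searched, a stretch of under 3 kb therefore held all but 1 of the peaks.

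Myb (gene ID 17863, chromosome 10, 21124930 to 21160984) had 3 peaks in each list, none of them inside the gene. The highest-scoring site of all 5 windows lay 32.0 kb past the 3′ boundary, between Myb and the neighbouring gene Ahi1, from 21092436 to 21093432 as a PLZF-transgenic peak (score 576) and from 21092326 to 21093302 as an NKT peak (score 382). These scores ranked at percentiles 96.3 and 96.6 of their lists. This was the 1 peak of the windows in the highest of 10 score classes in each list, a class that holds 10% of a list.

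The other Myb peaks had lower scores and no partner. In the PLZF-transgenic list they scored 91.2 at 34.6 kb past the 3′ boundary (21090200 to 21090521) and 61.6 at 26.0 kb before the 5′ boundary (21186812 to 21187093), the latter over the start of the noncoding gene Gm33619. In the NKT list they scored 88.8 (21077010 to 21077306) and 71.5 (21077503 to 21077709), both inside Ahi1, 47.8 and 47.3 kb past the 3′ boundary. Just outside the window on the 5′ side, both lists had peaks inside the noncoding gene Gm33728 at 74.4 and 74.5 kb from Myb (scores 371 and 249) and at its start at 91.3 kb (329 and 149). A PLZF-transgenic peak of score 113 at 74.99 kb overlapped the NKT peak of score 249 as well. Other peaks outside the window had no partner. Past the 3′ boundary, inside Ahi1, were PLZF-transgenic peaks of 50.6 at 59.1 kb and 87.9 at 76.0 kb. An NKT peak of 56.8 lay there at 57.0 kb, and one of 50.3 lay 73.5 kb away on the 5′ side.

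Scores in the windows were mostly moderate or low in the PLZF-transgenic list, while in the NKT list their median was near that of the whole list. The 17 PLZF-transgenic scores ran from 52.4 to 576 with a median of 82.5, where the whole list had a median of 110.8, and 7 of the 17 were above it. The 10 NKT scores ran from 51.4 to 382 with a median of 79.3, where the list median was 73.8, and 6 of the 10 were above it. In the lowest 3 of 10 score classes were 8 of the 17 and 1 of the 10. The median width was 322 bp against 387 bp over the PLZF-transgenic list, and 217 bp against 224 bp over the NKT list.

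**Figure D2:**
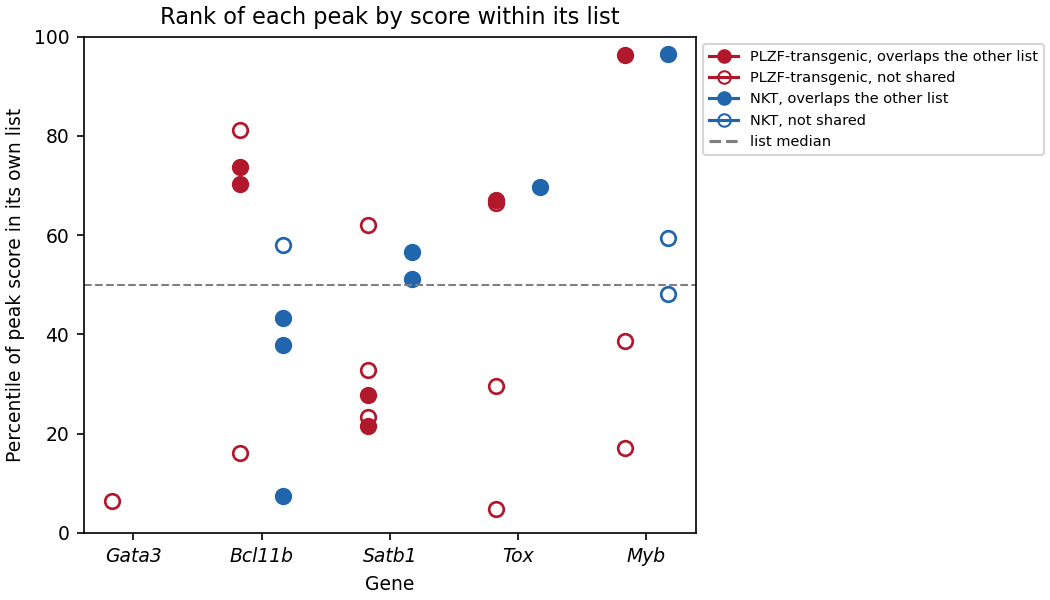
Percentile of each peak's score in its own list, by gene, with the PLZF-transgenic list in red and the NKT list in blue. Filled points overlap a peak of the other list and the dashed line is the list median. The shared Myb site stands at 96.3 and 96.6, while the Gata3 peak stands at 6.40.

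Of the 17 PLZF-transgenic peaks 6 overlapped an NKT peak, 35.3% (exact Clopper-Pearson 95% interval 14.2 to 61.7%), and 45.7% of the whole list did. Of the 10 NKT peaks 7 overlapped a PLZF-transgenic peak, 70.0% (34.8 to 93.3%), and 60.7% of the whole list did. These intervals cover counting error only and hold the share of the whole list in both cases. With 17 and 10 peaks they are wide, so holding it does not show that the shares are equal. The intervals treat peaks as independent, although a pair of the shared NKT peaks lay under a single PLZF-transgenic peak in Bcl11b. Since the shared share climbs with score, each peak was also given the share of its score class. These add up to 6.82 PLZF-transgenic and 6.10 NKT peaks, beside the observed 6 and 7. The counts observed at the identity genes were thus close to those of peaks of like score, as a description without a test.

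Shared PLZF-transgenic peaks had a median score of 171 and the 11 unshared ones 77.0. The NKT list did not show this order, with 75.2 for shared and 86.4 for the 3 unshared peaks. The 7 overlapping pairs had midpoints 22.5 to 174.5 bp apart (median 103.5 bp, and 63.5 bp over all 2603 pairs of the lists). In 7 of 7 pairs the NKT peak was narrower, as in 91.1% of all pairs, and the PLZF-transgenic peak contained the whole NKT peak in 5, as in 64.2% of all. The PLZF-transgenic score was the higher number in 5 of 7, the exceptions being the Satb1 upstream sites, and in 81.9% of all pairs.

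Gene bodies make up 53.0% of the 1063 kb of windows. They held 10 of the 17 PLZF-transgenic and 5 of the 10 NKT peaks, with no peak inside Myb in either list and none inside Gata3 or Satb1 in the NKT list. Per 100 kb the windows held 1.60 PLZF-transgenic and 0.941 NKT peaks, where the nuclear chromosomes between their outermost genes held 0.192 and 0.157. By gene the PLZF-transgenic density per 100 kb was 2.54 for Satb1, 2.20 for Myb, 2.06 for Bcl11b, 0.987 for Tox and 0.764 for Gata3. The NKT order was another one, with 2.20 for Myb, 2.06 for Bcl11b, 1.01 for Satb1 and 0.247 for Tox.

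Long windows collect more peaks, so each gene was set beside protein-coding genes with a window within 20% of its length. At least 4 PLZF-transgenic peaks, the count reached by Bcl11b, Satb1 and Tox, were found at 3.08% of all genes. Among genes of like window length, 4.55% had as many PLZF-transgenic peaks as Bcl11b, 2.29% as many as Satb1, 6.85% as many as Tox and 6.29% as many as Myb. For Gata3, with its single peak, 33.0% did. In the NKT list 3.38% had as many as Bcl11b, 4.59% as many as Myb, 12.9% as many as Satb1 and 33.8% as many as Tox. Summed over the 5 genes, the mean counts at genes of like length were 3.43 PLZF-transgenic and 2.78 NKT peaks, beside the 17 and 10 observed.

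**Figure D3:**
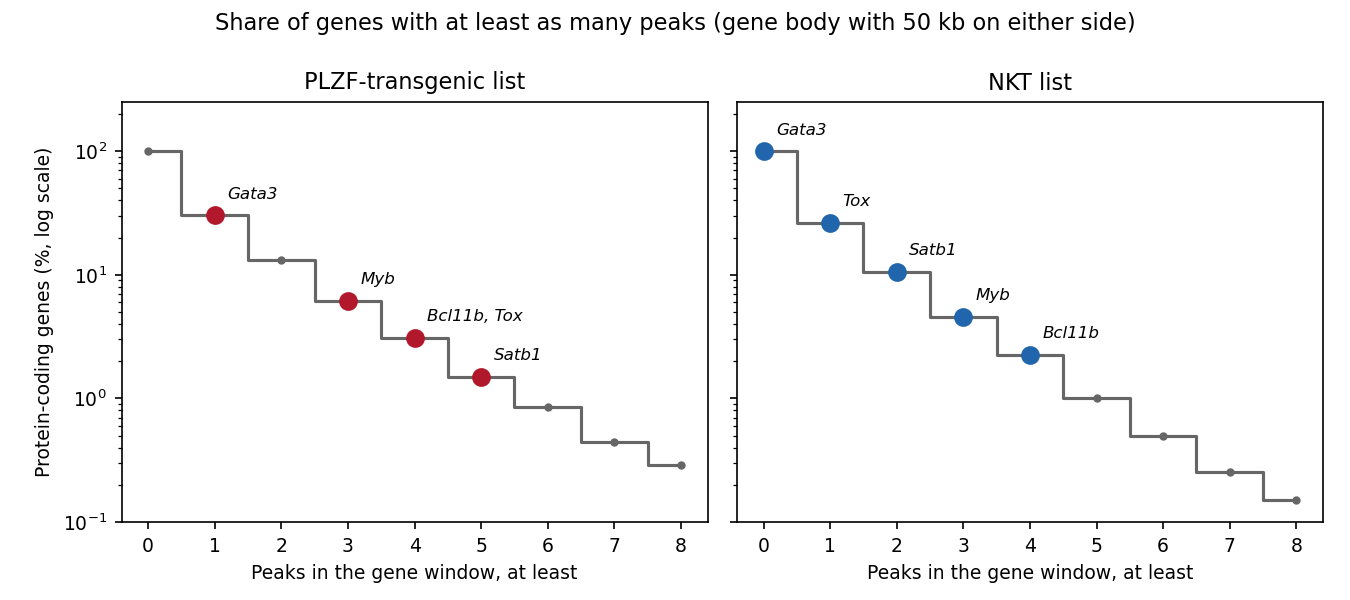
Share of all 21883 protein-coding genes (percent, log scale) with at least the number of peaks on the horizontal axis in the gene body with 50 kb on either side, for each list. Coloured points mark the 5 identity genes at their own counts: Satb1 is farthest out at left with 5 peaks and Bcl11b at right with 4, and Gata3 stands at 1 and 0.

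Other regulators of T lineage specification and commitment had peaks about as often. Of 20 such genes, 19 had a PLZF-transgenic and 16 an NKT peak in the window, all 16 with both, at a median of 3 and 2 peaks where the 5 identity genes had 4 and 2 and all genes 0 and 0. With the PLZF-transgenic value first, the highest scores were 1760 and 831 for Tcf7 (TCF1), 862 and 444 for Ets1, and 380 and 372 for the receptor gene Notch3. Each of these was above the highest score of Bcl11b, Satb1 and Tox. Cbfb, the partner of RUNX factors (80.5), and the E protein gene Tcf12 (63.9) had PLZF-transgenic peaks only, and Hes1, a Notch target named after its values were seen, had none.

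Genes of progenitors that are switched off at commitment had fewer. Of 15, 5 had a PLZF-transgenic peak, 4 an NKT peak and 3 both, near the 30.3%, 26.3% and 20.6% of all genes. Flt3 had highest scores of 451 and 239, Spi1 (PU.1) 253 and 172, and Mycn 51.6 and 56.3, the PLZF-transgenic value first. Erg (286) and Nfe2 (85.3) had PLZF-transgenic peaks only, and Kit, named after its values were seen, an NKT peak only (75.2).

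Paralogs, genes of the same families with main roles mostly in other tissues, also lay near the background. Of 11, 3 had a PLZF-transgenic peak and 2 an NKT peak. Tox2 had scores of 133 and 146 and Tox4 59.4 and 61.2, and Mybl2 had a PLZF-transgenic peak of 112. The windows of the 5 other GATA genes listed, and those of Bcl11a, Tox3 and Mybl1, held no peak in either list.

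**Figure D4:**
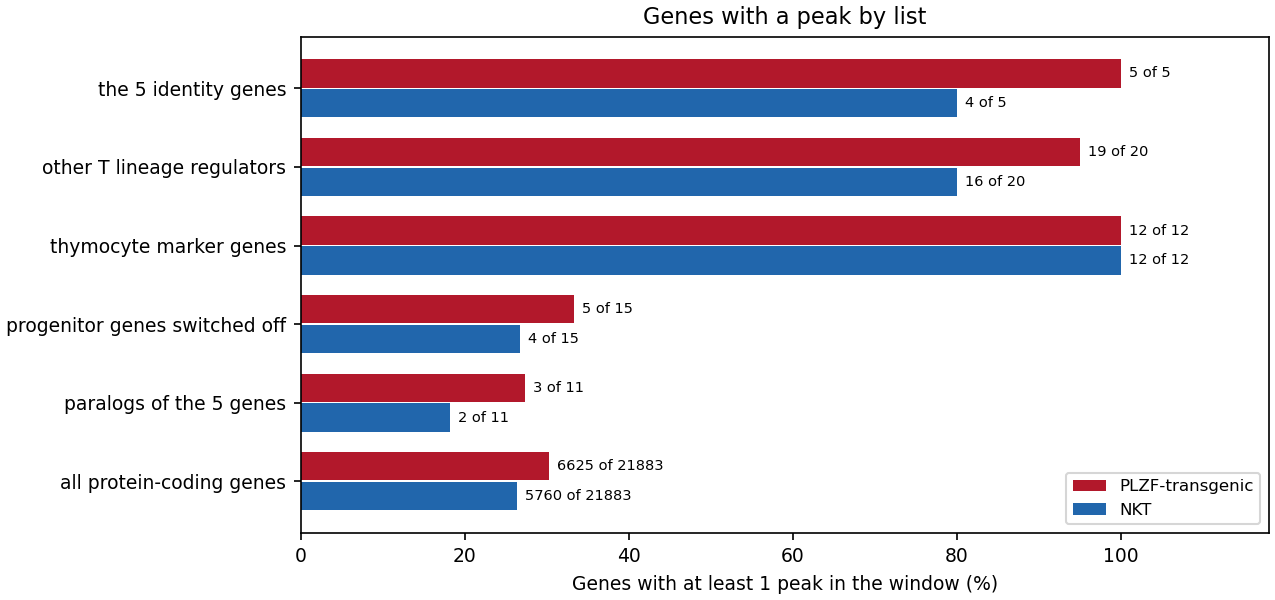
Percent of the genes of each list with at least 1 peak in the gene body with 50 kb on either side, in the PLZF-transgenic (red) and NKT (blue) lists, with counts beside the bars. The identity genes (5 of 5 and 4 of 5) stand beside the other T lineage regulators (19 and 16 of 20) and above the paralogs (3 and 2 of 11).

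All 12 thymocyte marker genes had a peak in both lists, where 20.6% of all genes did, although neighbours such as Cd3d, Cd3e and Cd3g share peaks. Of 5 B cell markers 3 and 2 had one, of 4 myeloid markers 2 and 2, and of 5 thymic stroma markers 0 and 1. Of all protein-coding genes 30.3% had a PLZF-transgenic and 26.3% an NKT peak. Peaks are no measure of expression and name no cell type, and the part of other cells in the peaks at the identity genes was not tested.

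Beyond the windows, the gaps between these genes and the next protein-coding genes held peaks with higher median scores. These gaps were looked at after values of the windows were seen. Past the 50 kb limit they ran over 5802 kb. They held 40 PLZF-transgenic peaks with a median score of 166 (110.8 over the list) and 27 NKT peaks with a median of 107 (73.8). Of each, 22 overlapped the other list, where 45.7% of all PLZF-transgenic and 60.7% of all NKT peaks did. The pooled densities past the limit, 0.689 and 0.465 peaks per 100 kb, were below the 1.60 and 0.941 of the windows. At Myb the order was reversed, with 3.53 past the limit in each list and 2.20 in its window. It was also reversed in the NKT list at Gata3, whose window held no NKT peak. The pooled densities were above the 0.192 and 0.157 of the nuclear chromosomes. Gata3 alone had 0.249 and 0.124, averaged over 2411 kb, and Tox had 0.156 in each list. Which gene such a peak acts on, if any, is not known from these data.

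In the gap of 2461 kb on the 3′ side of Gata3, up to Celf2, 6 PLZF-transgenic and 3 NKT peaks lay, all within 359 kb of the listed start. The highest lay 283 kb from that start, from 9595160 to 9595966 as a PLZF-transgenic peak of score 564 and from 9595205 to 9595842 as an NKT peak of score 293. A weaker shared site 284 kb away (289 and 111) and one 359 and 358 kb away (134 and 219) followed. A distant T cell enhancer is known in the gap downstream of Gata3, and whether the peaks lie in it was not tested. Averaged over the whole gap there were 0.244 PLZF-transgenic and 0.122 NKT peaks per 100 kb, near the 0.192 and 0.157 of the nuclear chromosomes. All of these peaks lay 175 to 337 kb past the gene body, so that average does not describe the stretch that held them. The gap thus held shared peaks of high score in its part nearer to Gata3, while the window held a single weak one.

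Bcl11b showed shared sites at a long distance as well. In the 798 kb between its 3′ end and Gm52008 lay 12 PLZF-transgenic and 8 NKT peaks, 6 of each shared. Over the whole lists 45.7% of PLZF-transgenic and 60.7% of NKT peaks were shared. Sites 879, 864 and 843 kb from the listed start had PLZF-transgenic scores of 385, 446 and 500 and NKT scores of 191, 178 and 296. They lay 786, 771 and 750 kb past the gene body, and so much closer to Gm52008 than to Bcl11b. Another group lay 220 to 224 kb from the start, with PLZF-transgenic scores of 125 to 234 and NKT scores of 64.8 to 148. In that group the PLZF-transgenic peak of score 234 did not overlap an NKT peak. The gene desert downstream of Bcl11b is known to hold a distant enhancer that works in early T cells, and its overlap with these peaks was not tested. On the 5′ side, the 102 kb up to Setd3 held none in either list.

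**Figure D5:**
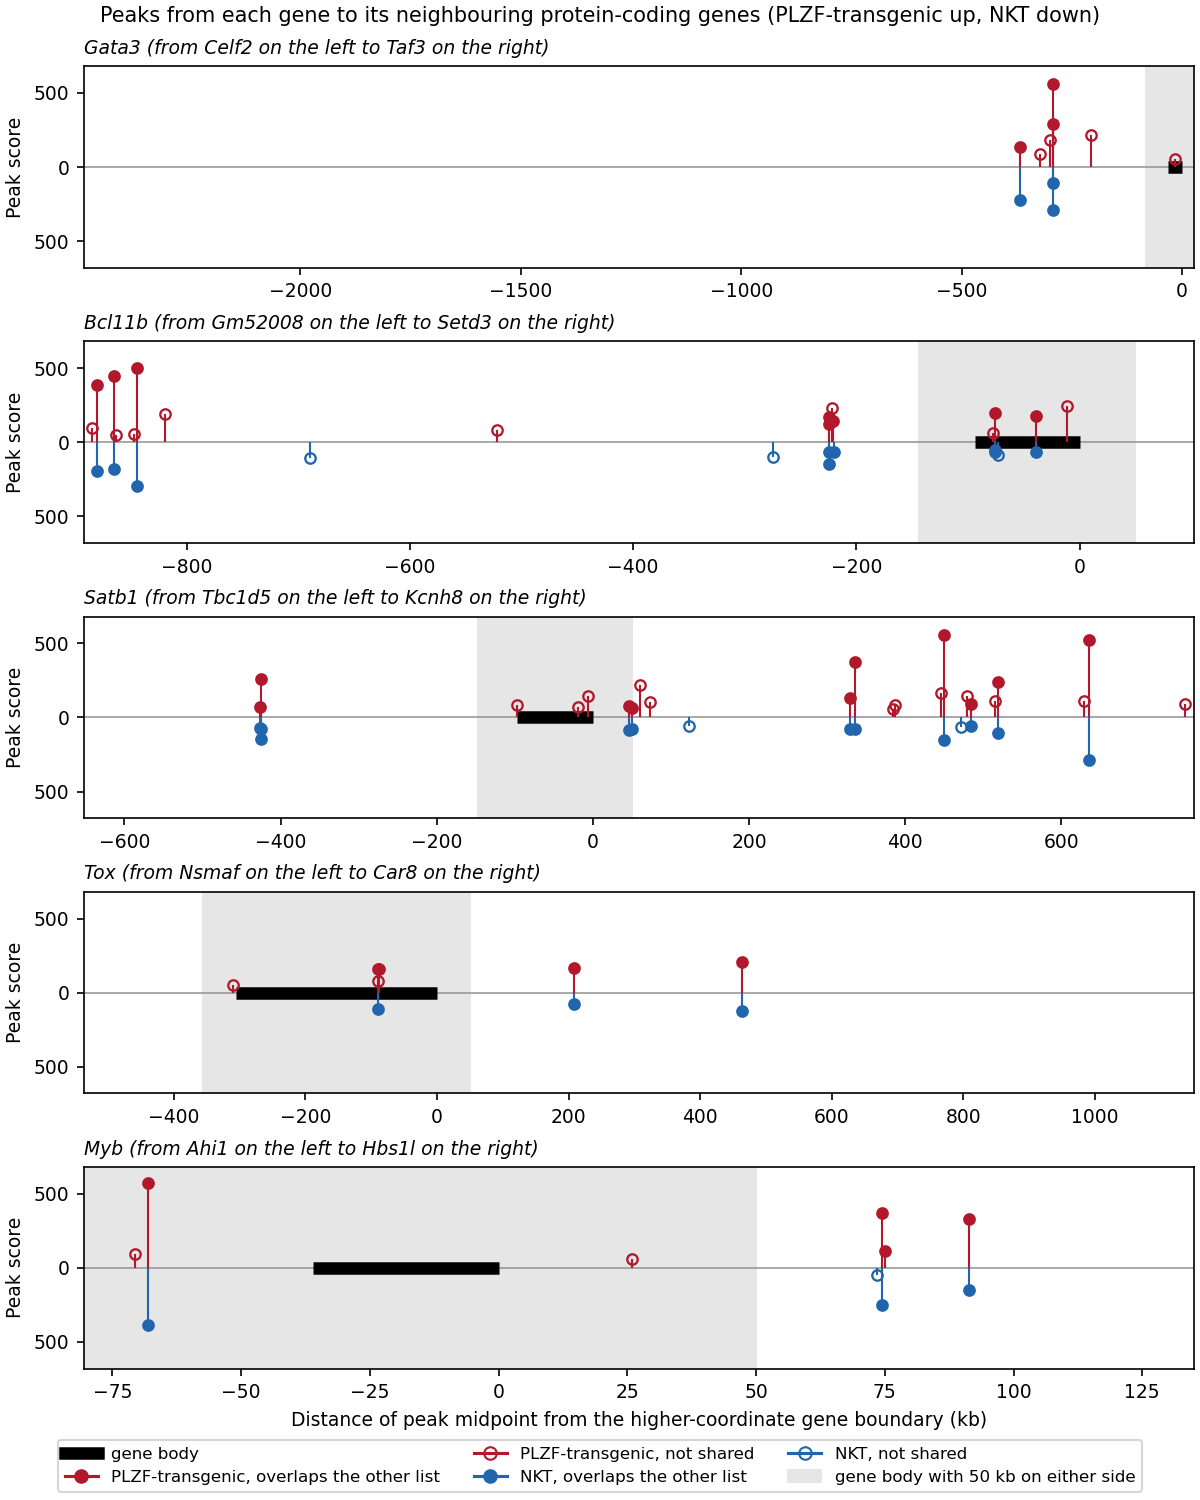
Peaks from each gene out to its neighbouring protein-coding genes, as distance in kb from the higher-coordinate gene boundary, with the peak score upward for the PLZF-transgenic and downward for the NKT list. Black bars are gene bodies, grey bands the windows of 50 kb on either side, and filled points overlap a peak of the other list. The highest Gata3 (564 and 293) and Bcl11b (500 and 296) stems stand far outside the grey bands, while the highest Myb stems (576 and 382) stand inside.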

How the data were processed

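Streptavidin ChIP-seq peak lists of mouse thymocytes were used, 1 for each of 2 libraries. The authors deposited 5 columns per peak with no header, and the fifth was treated as the authors' score, whose meaning the file does not state. Bowtie, Picard and HOMER and the build mm10 are named per the submitters' processing notes, peak names begin with MACS per the files, and versions, control and pooling were not given in the sources used here. Depth is unknown, so scores rank peaks within a list and show no change between lists.

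Starts were raised by 1 base. Gene spans came from RefSeq GRCm38.p6 and promoter sequences from the RefSeq promoter table of that build. A peak entered a window by its midpoint and was shared at an overlap of at least 1 bp. Counting was done in Python 3.11.15 with pandas 2.3.3 and was tested on simulated data. Without replicates no test was run. Named genes were the 5 members, genes holding their peaks, up to 3 genes per list with peaks in both libraries and up to 2 with peaks in 1, and for each member the 2 genes of most like pattern. Members and gene lists were chosen with earlier results of these data known. Alternatives were other flanks, any overlap with the window, higher score limits and other definitions of a shared peak. A gene of the paralog list and a gene of the B cell list are not reported here and were left out of the counts. Exons and peak sequences outside the promoter table were not used here.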

Additional observations from a re-analysis of the deposited data

How the results depend on the processing

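The 9 summary values (peaks, shared peaks and genes with a peak in each list, median scores, and the median distance between shared midpoints) were recomputed under other settings, and 25 of 46 recomputed values stayed within 1.5 times. With the gene body alone the counts were 10 PLZF-transgenic and 5 NKT peaks, 3 and 4 of them shared, with an NKT peak at 2 genes and a median PLZF-transgenic score of 152.1. A flank of 10 kb gave 3 shared PLZF-transgenic peaks, and in the NKT list 5 peaks, 4 shared, at 2 genes. The top 50% of each list by score left 7 and 6 peaks, 2 and 2 of them shared. A score of at least 100 left 7 and 2, 2 and 2 shared, with NKT peaks at 2 genes. Reciprocal overlap of 50% gave 4 shared NKT peaks and a median distance of 66 bp. With the gene body alone, the strong Myb site and the shared Satb1 sites fall outside, and the Gata3 peak is absent with either score limit. No paired analysis was possible because each group had 1 ChIP library. Depth is unknown, and a peak missing from a list may lie under its score limit.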

Other observations

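The gaps around Satb1 and Tox held shared sites too. On the 5′ side of Satb1, in the 769 kb up to Kcnh8, lay 17 PLZF-transgenic and 10 NKT peaks, 8 of each shared. The shares over the whole lists were 45.7% and 60.7%. The highest PLZF-transgenic scores were 559 at 449 kb and 520 at 635 kb from the gene, where the NKT scores were 154 and 285. On the 3′ side, 327 to 329 kb from the gene, PLZF-transgenic peaks of 257 and 71.9 met NKT peaks of 146, 79.98 and 72.6. The 1150 kb between Tox and Car8 held 2 peaks in each list, at 208 and 464 kb. PLZF-transgenic scores were 164 and 204 and NKT scores 78.3 and 122. The density there was 0.174 peaks per 100 kb in each list, beside 0.192 and 0.157 over the nuclear chromosomes.

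For each gene the protein-coding genes with the most like values were sought over 4 measures in the 2 libraries, the number of peaks and the highest score in each list, by the largest difference in percentile. For Myb these were Iqgap3 and Bid (differences of 0.123 and 0.231 percentile points), each with 3 peaks per list. For Tox they were Myzap (0.548) and Cdca5 (2.15), and 6 genes lay as near as Cdca5 or nearer. For Satb1 they were Gramd4 (1.41) and Acer2 (3.45), and 27 genes lay as near as Acer2 or nearer. For Bcl11b, Cep95 and Ddx5 stood at the same difference (1.53), and 4 genes lay as near or nearer. Cep95 and Ddx5 had the same values as each other (5 and 4 peaks, highest scores 249.55 and 96.75). Those of Bcl11b were 4 and 4 peaks and 243 and 86.4. For Myb, 3 genes lay as near as Bid or nearer. Names among such ties are examples. For Gata3, 18 genes were tied at 0, among them A930017K11Rik and Capn15. With 2 libraries and 4 measures, many unrelated genes can look alike.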
